A study of Mus musculus with 30 samples.

Results

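Transcripts of 9 genes that write, oxidise or read DNA methylation were compared between socially isolated (SI) and group-housed (GH) mice. They were the methyltransferases Dnmt1 and Dnmt3a, the TET dioxygenases Tet1, Tet2 and Tet3, and the methyl-CpG readers Mbd1, Mbd2, Zbtb4 and Zbtb38. The genes were chosen by name, with earlier results of these data known. Each was found once among the 17477 genes of the table, so 9 of 9 were measured. RNA-seq libraries came from polyA-selected RNA of the hippocampus of adult C57 BL/6J mice, 1 library per animal. There were 8 SI females, 7 GH females, 7 SI males and 8 GH males. SI animals were caged singly from weaning until they were killed as adults, and GH animals, the controls, shared cages over the same time. The labels name no allele and no agent beside housing and sex. The cage of each GH animal was not given in the sources used here, so animals that shared a cage were tested as separate samples.

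DNA methylation is placed on cytosine, mostly in the dinucleotide CpG. Dnmt1 copies it onto the new strand when DNA is replicated, and Dnmt3a places it on unmethylated DNA and is the main such enzyme of mature neurons. TET enzymes oxidise methylcytosine to hydroxymethylcytosine, which is abundant in brain, and so open a route to its removal. Mbd1 and Mbd2 bind methylated CpG through a methyl-CpG binding domain, and Zbtb4 and Zbtb38 bind it through zinc fingers. These readers recruit corepressor complexes such as NuRD and NCoR to methylated DNA.

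Total counts were between 18809307 and 100844898 per library. All 6 hippocampal neuron markers were present in every group, with Slc17a7 and Snap25, a vesicular glutamate transporter and a synaptic protein, among them, and the lowest count of any was 705, for Prox1. SI males 25, 33 and 39 stood apart from the other 27 libraries. Their slope of expression on transcript length, in log2 units per doubling of length, was -0.468, -0.447 and -0.354, against -0.128 to 0.174 in the others. Ribosomal protein genes took 3.15 to 4.06% of their counts and at most 2.29% elsewhere. Results in males are therefore also given without these animals. Summed astrocyte markers were between 1725 and 2227 CPM (counts scaled to a common library size) in GH females and between 1372 and 1962 in SI females. All 5 astrocyte markers had a negative log2 fold change (Log2FC) in each sex. In females 2 of them passed the test, where 2.93% of all genes passed as lower and 3.89% as lower or higher. Summed endothelial markers were between 104 and 134 CPM in GH females and between 126 and 169 in SI females, with 4 of 4 above 0 in Log2FC and 1 passing. Neuron markers were above 0 in 6 of 6 and choroid plexus markers in 8 of 8 in females, and oligodendrocyte and microglial markers below 0 in 5 of 5 each, with 0 passing in these lists. The lowest of the neuron markers was at a Log2FC of only 0.00012 in females. In males 0 markers of any list passed, where 0% of all genes did. In bulk tissue, fewer cells of a type and less RNA per cell cannot be told apart, and the part of these cells in the results that follow was not tested.

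The promoters of the genes differed in their content of CpG, the dinucleotide on which these proteins act. In the RefSeq promoter sequences (GRCm38.p6), windows of the 250 bases before a transcription start were found for 7 of the 9 genes, 13 windows in all, with up to 3 start sites for a gene. The letters CG, which read the same on both strands, occurred at least once in 92.1% of the 32851 promoter windows of the table, with a median of 6 and quartiles of 2 and 16. Of the 13 windows, 11 held more than this median. Tet2 stood highest with 51 CpG, a number reached by 0.067% of all windows. Its window is shown as the CpG-richest of the group, and the windows of Zbtb4 (13 CpG, reached by 31.5% of windows) and of the first start of Zbtb38 (6 CpG, reached by 50.4%) as those of the related pair of readers whose ratio is described further on. CG is in capitals and each sequence runs 5′ to 3′ on the strand of its gene.
Tet2, chr3:133544391-133544640, minus strand: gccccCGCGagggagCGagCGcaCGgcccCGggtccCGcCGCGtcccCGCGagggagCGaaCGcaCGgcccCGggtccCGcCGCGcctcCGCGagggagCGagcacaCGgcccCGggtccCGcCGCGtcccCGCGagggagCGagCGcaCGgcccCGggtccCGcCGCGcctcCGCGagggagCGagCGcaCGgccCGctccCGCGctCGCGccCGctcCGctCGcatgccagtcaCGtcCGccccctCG
Zbtb4, chr11:69765662-69765911, plus strand: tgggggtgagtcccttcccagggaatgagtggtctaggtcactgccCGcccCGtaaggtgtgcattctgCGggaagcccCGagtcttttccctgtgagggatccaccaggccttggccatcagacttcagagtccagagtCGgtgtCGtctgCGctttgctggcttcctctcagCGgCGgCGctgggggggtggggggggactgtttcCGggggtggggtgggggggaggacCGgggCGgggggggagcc
Zbtb38, chr9:96731676-96731925, minus strand: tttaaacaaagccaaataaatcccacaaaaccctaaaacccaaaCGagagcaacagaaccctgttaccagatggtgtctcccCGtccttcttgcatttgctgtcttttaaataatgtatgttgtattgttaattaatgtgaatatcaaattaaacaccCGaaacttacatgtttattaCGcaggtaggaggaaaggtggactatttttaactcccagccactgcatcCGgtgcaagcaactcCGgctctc
Dnmt3a had windows with 38, 40 and 15 CpG, Dnmt1 with 2, 7 and 26, and the other starts of Zbtb38 had 31 and 23. Tet1 had 15 and Tet3 had 17. These counts describe the reference sequence, and methylation itself was not measured.

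Levels of the genes were compared per kilobase of transcript, as CPM divided by the length of the longest annotated protein-coding transcript of each gene. Mbd2 and Zbtb4 were the most abundant, with medians over the 30 mice of 22.997 and 22.8 CPM per kilobase. Mbd2 exceeded Zbtb4 in 13 of 30 mice, so their order was not settled. Mbd1 followed at 11.8 and Dnmt1 at 7.87, each below the gene before it in 30 of 30 mice. Zbtb38 at 5.99 lay below Dnmt1 in 27 of 30 mice, and Dnmt3a at 5.66 lay below Zbtb38 in 23 of 30. The TET enzymes were the scarcest by this measure, which rests on the length taken for each gene. In CPM not divided by length, the median of Tet3 was above that of Mbd1 in GH males (41.03 and 33.1). It was below in SI males (29.96 and 32.6). Per kilobase, Tet3 had 3.64, Tet2 2.32 and Tet1 0.503 CPM, and this order held in every mouse, with the same lengths used throughout. Among the 15964 genes with a known length, Mbd2 ranked at percentile 80.7, Dnmt3a at 50 and Tet1 at 17. All 9 genes passed the filter on low counts in both sexes, and the lowest count of any of them was 53, for Tet1 in an SI male.

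**Figure D1:**
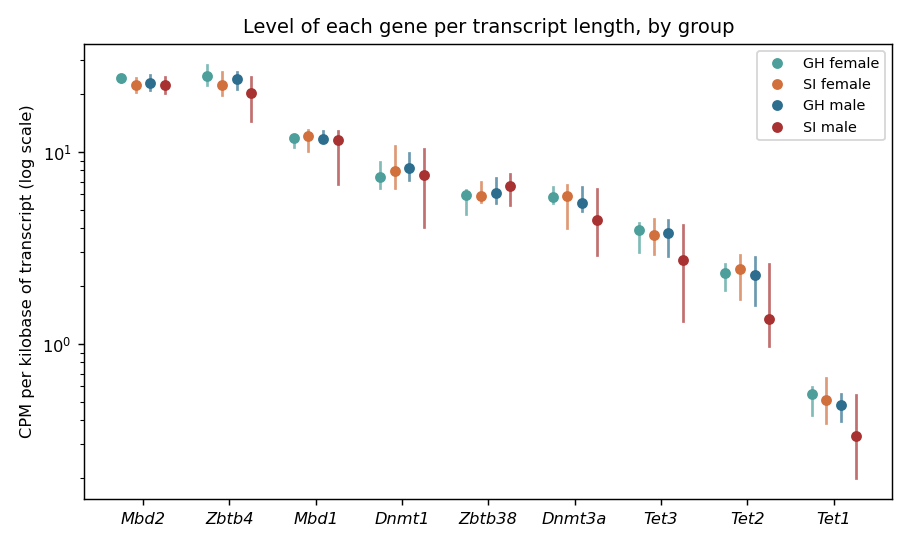
Median (point) and range (line) of CPM per kilobase of transcript in the 4 groups, on a log scale, for each gene in order of its level. Mbd2 and Zbtb4 overlap at the top, near 22.8 CPM per kilobase, and Tet1 lies lowest at 0.503.

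Isolation was tested in each sex apart, with edgeR's quasi-likelihood test and surrogate variables as covariates, to ask whether it altered the machinery of DNA methylation in hippocampus. In females, 0 of the 9 genes were differentially expressed at a Benjamini-Hochberg adjusted p under 0.05, where 3.89% of all 16026 genes tested were. In males 0 of 9 passed, where 0% of 15833 genes did. At an unadjusted p under 0.05, Mbd2 and Zbtb4 were lower in SI females, 2 of 9 genes, where 11% of all genes were lower at this level and 20.2% lower or higher. Zbtb4 was lower in SI males at this level, 1 of 9 genes, where 7.38% of all genes were lower and 13% lower or higher. DESeq2 with the same surrogate variables also called 0 of 9 in each sex, with 2 genes under 0.05 unadjusted in females and 1 in males. The median Log2FC of the 9 genes was 0.045 in females, with 6 genes above 0 and 3 below, beside a median of 0.0077 over all genes. It was -0.13 in males, with 1 above 0 and 8 below, beside -0.0020 over all genes. Without SI males 25, 33 and 39, 3 genes were above 0 and 6 below.

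**Figure D2:**
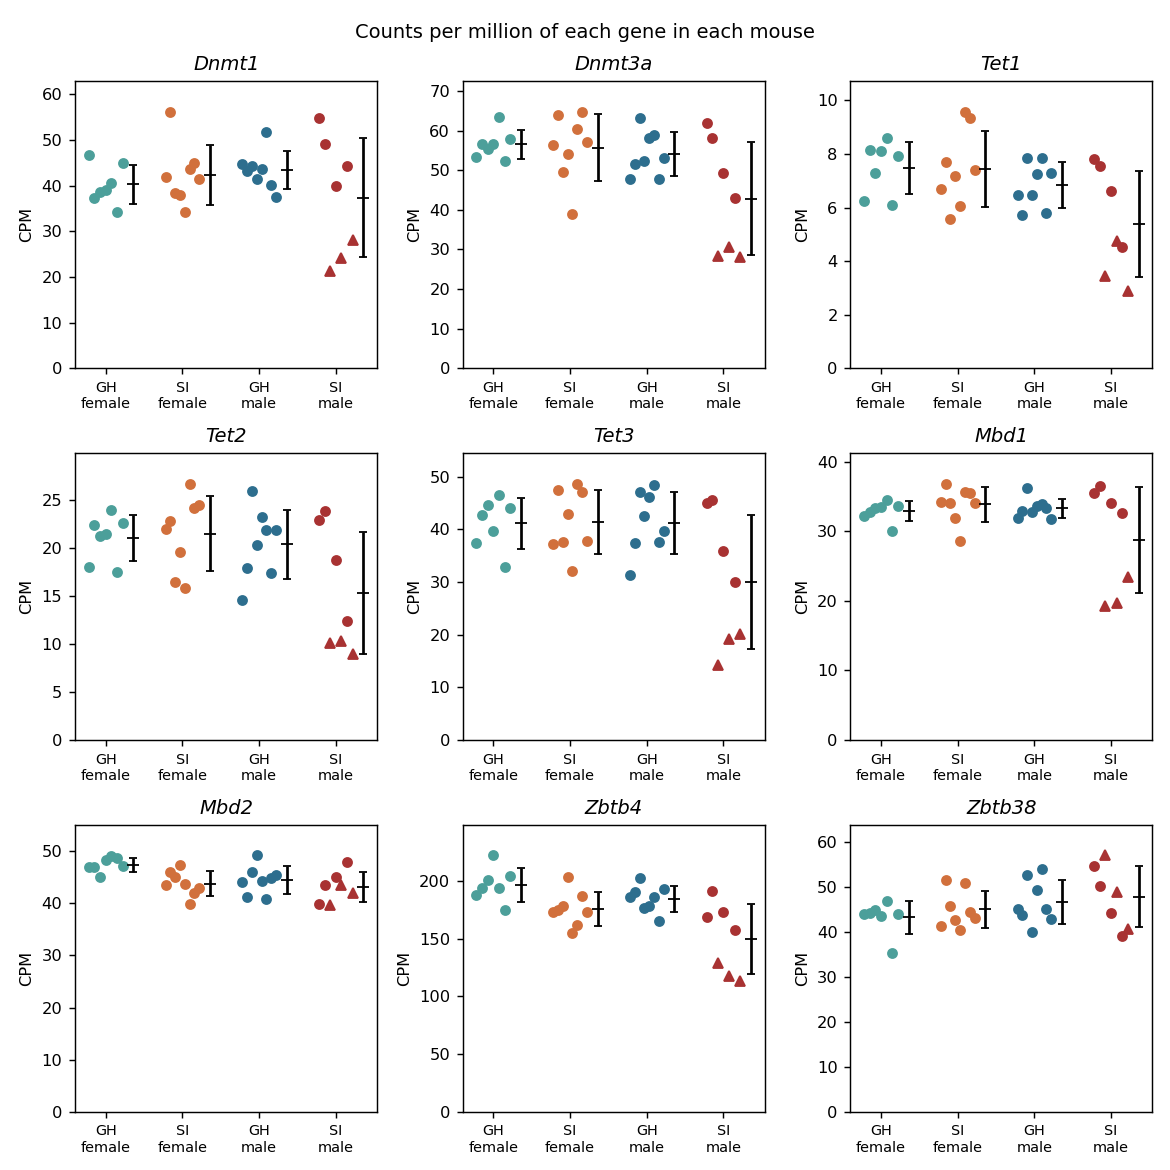
CPM of each gene in every mouse, by group, with the mean and SD as a black bar beside the points. Triangles are SI males 25, 33 and 39. SI and GH points overlap for every gene in both sexes.

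Among the methyltransferases, Dnmt1 had 34.3, 39.1 and 46.7 CPM as the lowest, median and highest value in GH females and 34.2, 41.7 and 56.2 in SI females. In males the values were 37.6, 43.5 and 51.7 CPM in GH and 21.3, 40.0 and 54.8 in SI. SI females lay within the GH range but for 1 animal on each side, while 3 SI males lay below every GH male and 1 above. The fitted Log2FC was 0.066 (SE 0.0462, edgeR, adjusted p = 0.456) in females and 0.039 (SE 0.0496, adjusted p = 0.758) in males. These fits adjust for surrogate variables, and in males the sign was opposite to that of the difference in medians. Dnmt3a, the de novo enzyme, had 52.5, 56.6 and 63.6 CPM in GH females and 39.05, 56.8 and 64.8 in SI females. In males it had 47.8, 52.7 and 63.3 in GH and 28.2, 43.0 and 62.0 in SI. Medians were almost equal in females, and in males 4 of 7 SI animals lay below the GH range. Its Log2FC was -0.0041 in females, with a 95% confidence interval from -0.13 to 0.12 (adjusted p = 0.980), and -0.13 in males, from -0.29 to 0.019 (adjusted p = 0.428).

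None of the TET dioxygenases passed the test in either sex. Tet1 had 6.10, 7.92 and 8.59 CPM in GH females, 5.57, 7.30 and 9.58 in SI females, 5.73, 6.87 and 7.86 in GH males and 2.87, 4.74 and 7.83 in SI males. Tet2 had 17.5, 21.4 and 24.01 CPM in GH females, 15.8, 22.4 and 26.7 in SI females, 14.6, 21.1 and 26.0 in GH males and 8.98, 12.4 and 23.8 in SI males. Tet3, the most abundant of them, had 32.7, 42.8 and 46.5 CPM in GH females, 32.1, 40.4 and 48.7 in SI females, 31.4, 41.03 and 48.3 in GH males and 14.3, 29.96 and 45.5 in SI males. In females SI values spread to both sides of the GH range for all 3 enzymes, and in males 4 of 7 SI animals lay below it for each of them and none above. Log2FC in females was 0.044 for Tet1 (SE 0.0838), 0.075 for Tet2 (SE 0.0809) and 0.045 for Tet3 (SE 0.0431), with edgeR adjusted p from 0.610 to 0.822. In males it was -0.14 for Tet1 (SE 0.133, adjusted p = 0.652), -0.21 for Tet2 (SE 0.135, adjusted p = 0.501) and -0.19 for Tet3 (SE 0.0923, adjusted p = 0.395). The standard errors of Tet1 and Tet2 in males were the widest of the group. In females the SI medians of Tet1 and Tet3 were below the GH medians, although their Log2FC, adjusted for surrogate variables, was above 0.

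Of the readers with a methyl-CpG binding domain, Mbd2, which recruits NuRD, had the tightest replicates in GH females, with a coefficient of variation of 2.86% against 4.34% for Mbd1, but not in GH males, with 5.96% against 4.30%. It had 44.999, 47.1 and 49.004 CPM as the lowest, median and highest value in GH females and 39.8, 43.6 and 47.4 in SI females. In SI females 5 of 8 animals lay below all 7 GH females, 3 lay within their range and 7 of 8 were below the GH median. The Log2FC was -0.12 (SE 0.0403), a fitted difference of -7.71%, with a Benjamini-Hochberg adjusted p of 0.114 in edgeR. With trends on transcript length and GC content removed from each library, Mbd2 passed in females (Log2FC = -0.13, edgeR adjusted p = 0.0403), where 9.48% of all genes did. In males Mbd2 had 40.9, 44.6 and 49.2 CPM in GH and 39.6, 43.5 and 47.9 in SI, with a Log2FC of -0.024 (SE 0.0610, adjusted p = 0.897). Mbd1 had 30.1, 33.4 and 34.6 CPM in GH females and 28.7, 34.2 and 36.9 in SI females, where 3 animals lay above the GH range and 1 below. In males it had 31.7, 33.1 and 36.3 CPM in GH and 19.2, 32.6 and 36.5 in SI, where 3 animals lay below the GH range and 1 above. Its Log2FC was 0.055 (SE 0.0365, adjusted p = 0.434) in females and -0.018 (SE 0.0510, adjusted p = 0.908) in males.

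Of the zinc finger readers, Zbtb4 was lower in SI at the median in both sexes, without passing the test in either. It had 175, 194 and 222 CPM in GH females and 155, 174 and 204 in SI females, and 4 of 8 SI animals lay below the GH range. In males it had 165, 186 and 202 CPM in GH and 113, 158 and 191 in SI, and 4 of 7 SI animals lay below the GH range. The Log2FC was -0.12 (SE 0.0465, edgeR adjusted p = 0.146) in females and -0.19 (SE 0.0669, adjusted p = 0.326) in males. The paper, from its own fits, lists Zbtb4 as differentially expressed and lower in SI in both sexes. In the fits made here the call turned on single animals. Zbtb4 passed in females without GH animal 46 (Log2FC = -0.16, adjusted p = 0.0448, where 8.55% of all genes passed) and without SI animal 52 (Log2FC = -0.17, adjusted p = 0.0441, where 6.64% did), and in males without SI animal 27 (Log2FC = -0.25, adjusted p = 0.0194, where 15.3% did). Zbtb38 had 35.3, 44.1 and 46.9 CPM in GH females and 40.4, 43.8 and 51.5 in SI females, and in males 40.0, 45.2 and 54.1 in GH and 39.2, 49.04 and 57.1 in SI. Its groups overlapped on both sides, with a Log2FC of 0.059 (SE 0.0391, adjusted p = 0.429) in females and -0.0097 (SE 0.0943, adjusted p = 0.978) in males. In each sex the sign of this adjusted value was opposite to that of the difference in medians.

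**Figure D3:**
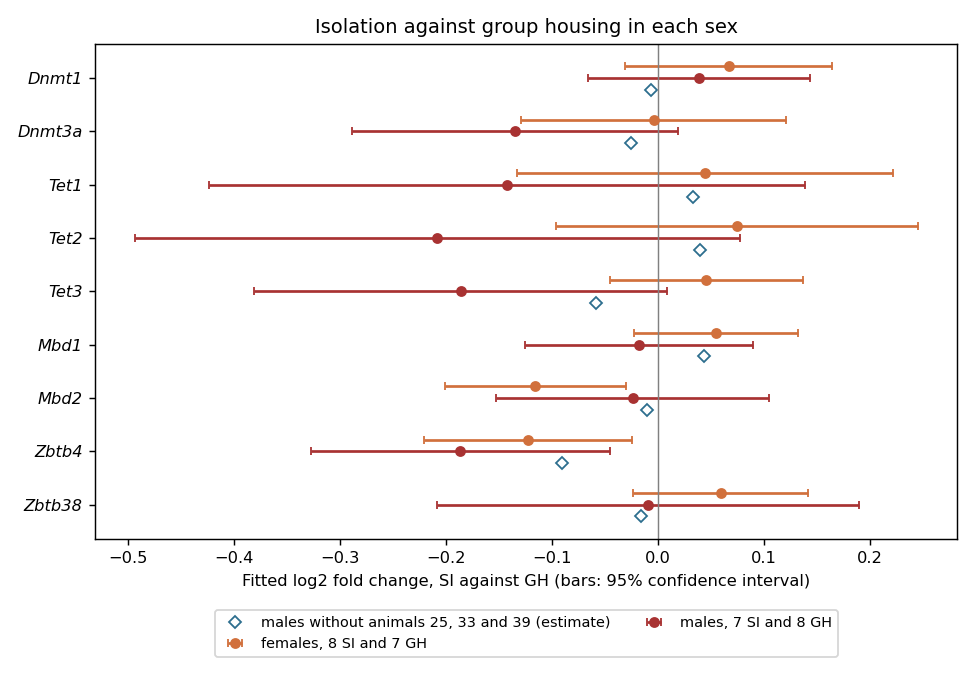
Fitted Log2FC of SI against GH for each gene in females (orange) and males (red), with 95% confidence intervals, and the estimate in males without animals 25, 33 and 39 (open diamonds). The intervals of Mbd2 in females and of Zbtb4 in both sexes lie below 0 before adjustment, and without the 3 animals the male values lie between -0.090 and 0.044.

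In SI males 25, 33 and 39, 7 of the 9 genes lay below all 8 GH males. The share of all genes that did so was not counted. The exceptions among the 9 were Mbd2, whose transcript of 1953 bases is the shortest of the group, and Zbtb38, with 7413 bases. The longest transcript was that of Tet1, with 14369 bases. Mbd1, with only 2833 bases, lay below all GH males in the 3 animals. Tet3, for example, had between 14.3 and 20.1 CPM in these animals, between 29.96 and 45.5 in the other 4 SI males and between 31.4 and 48.3 in GH males. Zbtb4 had between 113 and 128 CPM in the 3 animals, 158 to 191 in the other 4 and 165 to 202 in GH males. Zbtb38 had between 40.6 and 57.1 CPM in them, 39.2 to 54.7 in the other 4 and 40.0 to 54.1 in GH males. Without the 3 animals, the Log2FC in males was 0.039 for Tet2, 0.033 for Tet1, 0.044 for Mbd1, -0.0061 for Dnmt1, -0.025 for Dnmt3a, -0.059 for Tet3, -0.010 for Mbd2 and -0.016 for Zbtb38, with 0 genes called. Zbtb4 was the most negative, at -0.090 (SE 0.0489, edgeR adjusted p = 0.834). Summed markers of some cell types, but not of all, also set these libraries apart from the other males. Oligodendrocyte markers were between 7244 and 9761 CPM in the 3 animals and at most 6616 in the other 12 males, microglial markers between 237 and 292 against at most 233, and endothelial markers between 199.9 and 249 against at most 183. Interneuron markers were between 763 and 835 CPM against at most 732, and hippocampal neuron markers between 2724 and 3117 against at least 3432. Summed markers of astrocytes, choroid plexus, thalamus and striatum overlapped between the 3 animals and the other males. The part of any of these cells in the levels of the 9 genes, and why these libraries differ, was not tested.

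**Figure D4:**
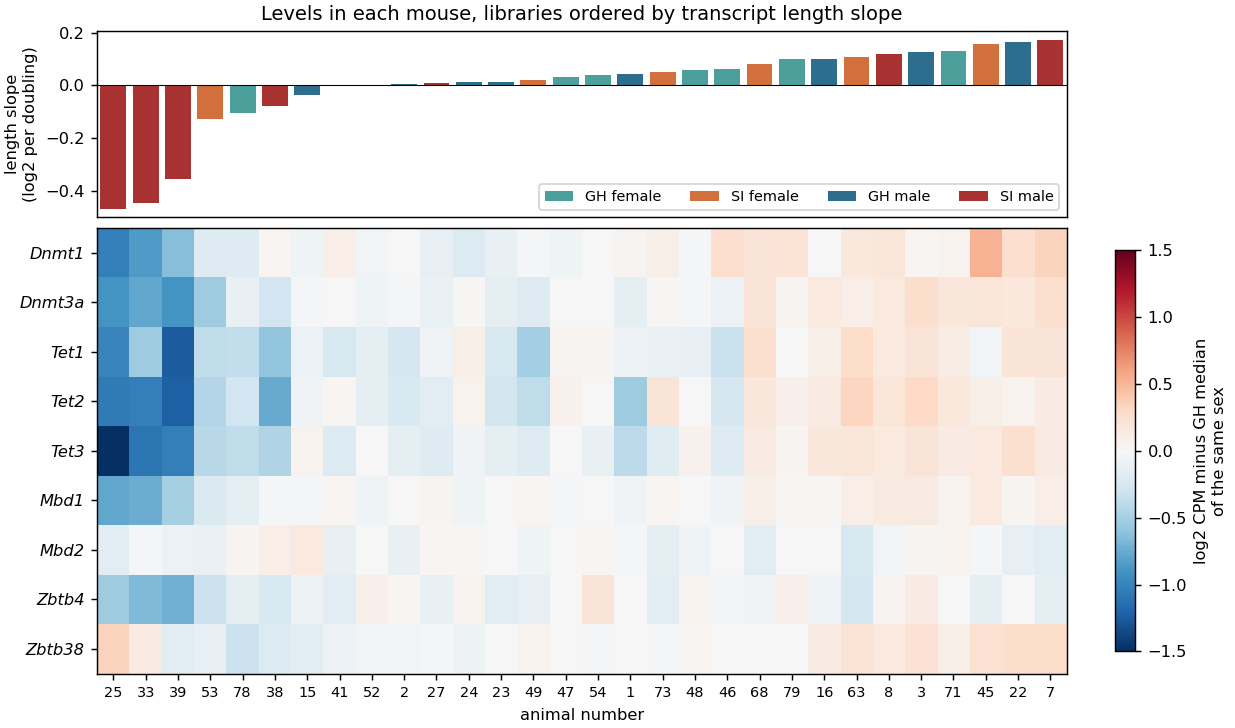
Upper panel, slope of expression on transcript length in each of the 30 libraries (log2 per doubling of length), coloured by group and ordered from lowest to highest. Lower panel, log2 CPM of each gene in the same libraries minus the GH median of its sex. The 3 libraries at the left, SI males 25, 33 and 39, lie below every GH male in 7 of 9 genes, a share not counted over all genes. In Mbd2 they are less far below the GH median, and in Zbtb38 they lie on both sides of it.

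Whether the sexes differed in their response was tested over all 30 mice, as the interaction between housing and sex. In edgeR 0 of the 9 genes passed, where 0% of 16391 genes did, and 0 had an unadjusted p under 0.05, where 7.48% did. DESeq2 also called 0 of 9. The female minus male difference in Log2FC was between -0.063 for Mbd2 and 0.15 for Tet2. Between GH females and GH males, 0 of 9 genes passed, where 6.31% of genes did. Dnmt1 had the smallest p, lower in females by a Log2FC of -0.12 (SE 0.0493, edgeR adjusted p = 0.135), followed by Zbtb38 at -0.11 (SE 0.0544, adjusted p = 0.184). These were the 2 of 9 genes under 0.05 before adjustment, where 13.1% of all genes were lower in females and 26.4% lower or higher.

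Ratios between related members were compared within each library, where library scaling cancels. The counts of Zbtb4 relative to Zbtb38 had a mean log2 ratio of 2.18 ± 0.112 (SD, n = 7) in GH females and 1.96 ± 0.184 (n = 8) in SI females. The difference was -0.22, and 7 of 8 SI females lay below the GH mean (p = 0.0160 in a two-sided exact permutation test, 0.0979 when adjusted over the 10 ratio tests). In males the mean was 1.99 ± 0.148 (n = 8) in GH and 1.63 ± 0.346 (n = 7) in SI, a difference of -0.36 with 6 of 7 SI males below the GH mean (exact permutation p = 0.0196, adjusted 0.0979). Neither passed the adjustment. Without SI female 52 the female difference was -0.26 and passed (exact permutation, adjusted p = 0.0175), while without males 25, 33 and 39 the male difference was -0.11 (exact permutation p = 0.291). The ratio of Mbd1 to Mbd2 differed by 0.16 in females (exact permutation p = 0.0329, adjusted 0.110) and by -0.21 in males (p = 0.163), the latter becoming 0.071 without the 3 males. For Dnmt3a relative to Tet3, a writer against an eraser, the difference was -0.038 in females (exact permutation p = 0.544) and 0.17 in males (p = 0.0544, adjusted 0.136), or 0.051 without the 3 males. Dnmt1 relative to Dnmt3a differed by 0.10 and 0.11 in females and males and Tet2 relative to Tet3 by 0.014 and 0.071, with exact permutation p-values from 0.201 to 0.861. Without the 3 males, Dnmt1 relative to Dnmt3a differed by 0.15 and Tet2 relative to Tet3 by -0.0035.

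Across the 30 mice, after the group means were subtracted, log2 CPM of Dnmt3a, Mbd1 and the TET genes varied together. Pearson's r was 0.931 between Dnmt3a and Tet2, 0.931 between Dnmt3a and Tet3, 0.913 between Tet1 and Tet2 and 0.916 between Tet3 and Mbd1. Over the 27 mice without SI males 25, 33 and 39 these were 0.878, 0.860, 0.884 and 0.777. Mbd2 had an r between -0.068 and 0.20 to 7 members and of -0.50 to Zbtb38. Over the 27 mice its r was between -0.42 and -0.24 to Dnmt1, Dnmt3a, Mbd1 and the TET genes, 0.043 to Zbtb4 and -0.50 to Zbtb38. Zbtb38 had an r between 0.085 and 0.42 to the same 6 members over all mice and between 0.64 and 0.78 over the 27. Zbtb4 and Zbtb38 were at 0.16, and at 0.31 over the 27 mice. All of these values share the libraries and their length slope, and are given as a description.

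Of all genes, the one nearest to Tet1 was Tet2 (r = 0.913), followed by ENSMUSG00000096862 (0.909) and Cdk12 (0.904). The nearest were Cntnap4, Slc12a5 and Pacs1 for Dnmt1 (r = 0.980, 0.980 and 0.979), Cbl, Mll2 and Ahctf1 for Dnmt3a (0.963, 0.962 and 0.958), Csmd3, Mios and Bdp1 for Tet2 (0.948, 0.941 and 0.940), and Eif2c1, Dlgap2 and Kalrn for Tet3 (0.974, 0.971 and 0.965). For the readers they were Ankrd52, Stk24 and Mink1 for Mbd1 (0.982, 0.977 and 0.976), Zfp236, Rab22a and Sash1 for Zbtb4 (0.928, 0.920 and 0.920), Pcdh19, B4galt6 and Nipbl for Zbtb38 (0.929, 0.915 and 0.910), and Zfp219, Sp5 and C1qtnf9 for Mbd2 (0.716, 0.708 and 0.652). No gene came closer to Mbd2 than an r of 0.716, the lowest nearest value of the 9 members. These lists rest in part on SI males 25, 33 and 39, since 6 of the 27 genes named stayed among the 3 nearest over the other 27 mice. Those were Cntnap4, Tet2 (then the second nearest to Tet1), Csmd3, Bdp1, Eif2c1 and Sp5, while Pcdh19, B4galt6 and Nipbl moved to ranks 73, 152 and 199 for Zbtb38.

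Other genes of the pathway were counted in 5 lists of 67 genes, of which 66 were tested in each sex. Dnmt3l, a catalytically inactive partner of Dnmt3a, did not pass the filter. In females 2 of 66 were DEGs, both lower in SI, where 2.93% of all genes were called lower. Chd3, a remodelling ATPase of NuRD, had the larger difference. It had 1150.2, 1252 and 1492 CPM as the lowest, median and highest value in GH females and 897, 1015 and 1146 in SI females (Log2FC = -0.30, SE 0.0468, edgeR adjusted p = 0.00703). The highest SI value, 1146.3, lay only just under the lowest GH value. How many of all genes had groups without overlap was not counted. In males 0 of 66 passed, and Chd3 had a Log2FC of -0.18 (SE 0.0737, adjusted p = 0.343). Without SI males 25, 33 and 39, 0 of 67 passed and Chd3 was at -0.090 (SE 0.0466, edgeR adjusted p = 0.834).

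By list in females, 0 of 7 tested partners of methylation, 0 of 18 TET partners and repair genes, 1 of 20 subunits of NuRD and NCoR (Chd3) and 0 of 13 genes of methyl donor supply passed. Among these lists without a call, the smallest p in females was for Uhrf2, a relative of the maintenance factor Uhrf1 (Log2FC = 0.17, edgeR adjusted p = 0.0607), Idh2, which makes the cosubstrate of TET enzymes (-0.15, adjusted p = 0.0537), and Mat2a, which makes the methyl donor (0.11, adjusted p = 0.137). In males it was for Dmap1, a Dnmt1-associated protein (0.23, adjusted p = 0.332), Neil1, a repair glycosylase (0.32, adjusted p = 0.3001), Mta3, a NuRD subunit (-0.28, adjusted p = 0.3001), and Ahcyl2, a relative of the enzyme that clears the used methyl donor (-0.20, adjusted p = 0.354). None of these passed. Without the 3 males the Log2FC was -0.020 for Dmap1, 0.21 for Neil1, -0.089 for Mta3 and -0.0020 for Ahcyl2, again with none passing. DESeq2 called 10 of 66 in females, where it called 7.87% of all genes, and 0 in males.

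**Figure D5:**
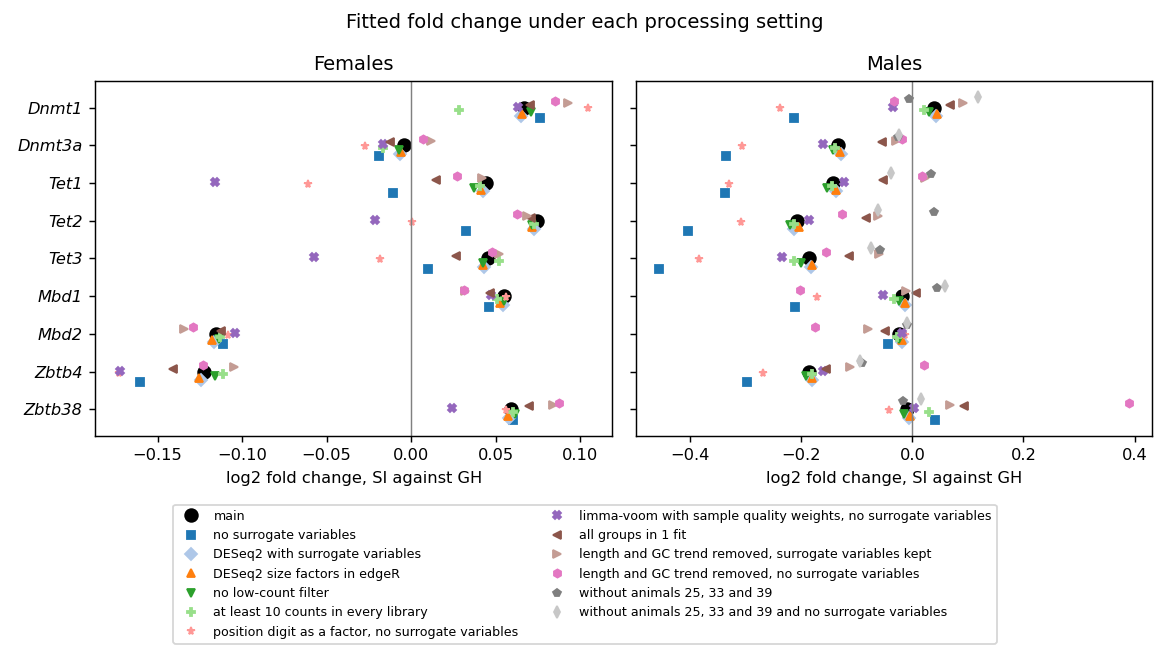
Fitted Log2FC of SI against GH for each gene in females and males under each processing setting (symbols in the key, black circle as reported). In females Mbd2 and Zbtb4 lie below 0 and Dnmt1, Mbd1 and Zbtb38 above 0 under all settings drawn, while in males Dnmt1, for example, lies between -0.24 and 0.12.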

How the data were processed

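Per the paper's methods and the submitters' processing notes, the authors trimmed reads with Trimmomatic 0.39, quantified them with Salmon 1.8.0 and used the build GRCm39. The deposited values are raw counts, whole numbers for each gene in each animal. The strand setting was not given in the sources used here. Symbols were found for 16439 genes (94.1%), and transcript length and GC content, from an older build, for 15964 (91.3%). All 30 columns were matched to mice by name.

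Counts were tested with edgeR 4.0.16 in R 4.3.3. The filter was filterByExpr (count of at least 10, total of at least 15), applied to each sex. Libraries were scaled by TMM and fitted with glmQLFit, with surrogate variables from svaseq of sva 3.50.0 (seed 1; 3 in females, 2 in males, 4 over all mice) as covariates. The coefficient of SI against GH was tested with glmQLFTest, and p-values were adjusted by Benjamini-Hochberg over all genes, with a threshold of 0.05. CPM are counts scaled to the TMM-corrected library size. A prior count of 2 was used for log2 CPM. Log2 ratios of counts were compared by exact permutation tests.

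The 9 genes and the lists were chosen with earlier results of these data known. Pathway genes named were those that passed in either sex and, for each list, the gene with the smallest p in each sex; for each member, the 3 genes with the highest r were named. Alternatives were no surrogate variables, DESeq2 1.42.0, its size factors, other filters, the position digit of the labels as a factor, limma-voom (limma 3.58.1) with sample quality weights, all groups in 1 fit, trends on length and GC removed by lowess (span 0.3), and fits without 1 mouse at a time. The result of 1 pathway gene is not reported here. Replicates were separate animals. The steps were tested on simulated counts that held no length slope or other hidden difference between libraries. How well the fits handle such differences was not tested.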

Additional observations from a re-analysis of the deposited data

Results flagged for a closer look

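Among the 36 groups of values tested for a single distant animal (9 genes in 4 groups), 1 held such an animal. GH female 78 had 35.3 CPM of Zbtb38, below the 6 other GH females, and the gap to the nearest of them was 0.713 of the whole range of the group. Chance gives about 5% of groups such an animal. The same library was lowest of the GH females in 8 of 9 genes, all but Mbd2, and had the lowest length slope of that group, at -0.104. Without it the Log2FC of Zbtb38 in females was 0.040 (SE 0.0411, edgeR adjusted p = 0.620), within the 0.038 to 0.079 seen over all fits that left out 1 mouse. The part of the length slope in this value was not tested.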

How the results depend on the processing

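Averaged over genes, the spread between mice exceeded counting error in all 98 pairs of replicates (lowest mean chi-square per degree of freedom 9.29). This was not computed for the 9 genes apart, and it need not hold for a gene with tight replicates such as Mbd2 in GH females. No paired analysis was possible because every animal carries its own number, so no number is shared between groups. Settings without animals 25, 33 and 39 were chosen after the data were seen.

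Mbd2 passed in females with length and GC trends removed and surrogate variables kept (1 of 9 genes). The other settings that kept every mouse, and those without the 3 males, called 0 of 9 in females and in males. Leaving out each mouse gave 0 to 1 call in females and 0 to 1 in males, the calls being Zbtb4. In females 2 pathway genes passed as reported (where 3.89% of all genes did), 0 without surrogate variables, with the position digit as a factor and with trends removed without surrogate variables, 4 with at least 10 counts in every library (3.96%), 5 with limma-voom (5.23%), 10 with DESeq2 (7.87%) and 12 with trends removed and surrogate variables kept (9.48%). Leaving out each mouse gave 1 to 10 in females (0.55 to 8.55% of all genes) and 0 to 15 in males, where 15 came without SI animal 27 (15.3%) and the other 14 fits gave 0. Chd3 passed in 15 of 15 such fits in females, all with surrogate variables, but in only 7 of the 10 other settings.

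No value that changed its sign had passed the test. The Log2FC changed sign as follows, with its new value in brackets. Without surrogate variables it did for Tet1 (-0.011) in females, and for Dnmt1 (-0.21) and Zbtb38 (0.040) in males, and for Zbtb38 (0.023) in the interaction. With DESeq2 it did for Dnmt1 (-0.010) in the interaction. With DESeq2's size factors it did for Dnmt1 (-0.0095) in the interaction. Without a filter it did for Tet3 (-0.021) between GH females and males. With at least 10 counts in every library it did for Zbtb38 (0.031) in males, and for Mbd1 (-0.0038), Zbtb4 (-0.066) and Zbtb38 (0.031) in the interaction, and for Dnmt1 (0.015) and Mbd1 (0.022) between GH females and males. With the position digit as a factor it did for Tet1 (-0.061) and Tet3 (-0.019) in females, and for Dnmt1 (-0.24) in males, and for Zbtb38 (0.063) in the interaction, and for Mbd1 (0.0021) between GH females and males. With limma-voom it did for Tet1 (-0.12), Tet2 (-0.021) and Tet3 (-0.058) in females, and for Dnmt1 (-0.035) and Zbtb38 (0.0026) in males, and for Tet1 (-0.015), Zbtb4 (-0.025) and Zbtb38 (0.025) in the interaction. With all groups in 1 fit it did for Mbd1 (0.0067) and Zbtb38 (0.093) in males. With length and GC trends removed it did for Dnmt3a (0.012) in females, and for Tet1 (0.022) and Zbtb38 (0.067) in males, and for Tet1 (-0.020) and Zbtb4 (-0.019) in the interaction, and for Tet3 (-0.0074) between GH females and males. With these trends removed and no surrogate variables it did for Dnmt3a (0.0072) in females, and for Dnmt1 (-0.034), Tet1 (0.018), Zbtb4 (0.021) and Zbtb38 (0.39) in males, and for Tet1 (-0.0011), Mbd2 (0.038) and Zbtb4 (-0.15) in the interaction, and for Tet3 (-0.011) and Mbd1 (0.0035) between GH females and males. Without males 25, 33 and 39 it did for Dnmt1 (-0.0061), Tet1 (0.033), Tet2 (0.039) and Mbd1 (0.044) in males, and for Dnmt3a (-0.0024), Tet1 (-0.018), Mbd1 (-0.011), Zbtb4 (-0.061) and Zbtb38 (0.052) in the interaction, and for Tet2 (-0.016) and Tet3 (-0.071) between GH females and males. Without these males and without surrogate variables it did for Mbd1 (0.059) and Zbtb38 (0.015) in males, and for Dnmt1 (-0.048), Dnmt3a (-0.0022), Mbd1 (-0.019), Zbtb4 (-0.072) and Zbtb38 (0.038) in the interaction. Leaving out 1 mouse at a time also turned the direction of some values, which ranged from -0.078 to 0.10 for Tet1, -0.041 to 0.12 for Tet2, -0.041 to 0.079 for Tet3 and -0.065 to 0.029 for Dnmt3a in females, and from -0.094 to 0.037 for Mbd1, -0.057 to 0.018 for Mbd2, -0.074 to 0.043 for Zbtb38, -0.053 to 0.11 for Dnmt1 and -0.25 to 0.034 for Tet1 in males.

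The log2 ratio of Dnmt1 to Dnmt3a in males was -0.031 with trends removed, and without the 3 males that of Tet2 to Tet3 was -0.0035 and that of Mbd1 to Mbd2 0.071. Leaving out 1 mouse, Tet2 to Tet3 ranged from -0.033 to 0.048 in females and from -0.0038 to 0.12 in males, and Zbtb4 to Zbtb38 from -0.26 to -0.18 in females (adjusted p from 0.0175 to 0.176, exact permutation test). The causes were not tested.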
